A study of Mus musculus with 12 samples.

Results

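Collagens are trimers of chains that are each encoded by a gene of their own, and the 43 collagen chain genes measured here were every gene whose symbol is Col, a number, the letter a and a number, with at least 15 counts in total over the 12 libraries of the study. They were drawn from 19792 genes in the deposited count table by name and depth alone, and 1 further collagen gene, Col9a2, fell below 15 counts. By the type of collagen they build, 11 were fibrillar, 6 belonged to type IV of basement membranes, 6 to type VI, and 20 to other types. Each library was made from the mRNA of gonadal white adipose tissue (gWAT) from male mice of the C57BL/6 label, fed for 8 weeks from the age of 6 weeks. KO-HFD mice (Cx43-MKO, Gja1 floxed with Csf1r creER) received a high-fat diet (HFD) and tamoxifen. WT-HFD mice carried the floxed Gja1 alleles without the recombinase and received HFD. KO-NCD mice had the KO genotype and tamoxifen on a normal chow diet (NCD), and WT-NCD mice the floxed alleles alone on NCD, with 3 libraries in each group. All mice thus carried floxed Gja1, the gene of connexin 43, and Csf1r, whose promoter drives CreER, is expressed by macrophages and other myeloid cells. The deposited protocol places tamoxifen at 1 and 5 weeks of the diet for 5 days, the sample labels list it for KO mice only, and the study's methods give it to both genotypes before the experiments. If the labels are complete, tamoxifen and genotype cannot be told apart. The CreER line carries an FVB name, so strain background may also differ between genotypes, and this was not tested. Libraries are named by group and number, which run from 1 to 3 except in WT-HFD, where they are 1, 2 and 4.

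Fibrillar collagens of types I, III and V assemble into the load-bearing fibrils between cells, whereas type IV forms the sheet-like network of the basement membrane that surrounds every adipocyte and vessel. Type VI makes beaded microfilaments that link the basement membrane to the fibrils and is abundant in fat. Fibroblasts and adipocyte progenitors make most fibrillar collagen of adipose tissue, adipocytes and vascular cells contribute basement membrane chains, and accumulation of fibrillar collagen is a known feature of obese fat.

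Total counts per library ran from 47185990 to 73167755. Expression is given as CPM, the usual counts-per-library-size unit, scaled by edgeR's TMM factors. Seminal vesicle transcripts, foreign to fat, took 8.68%, 10.2% and 1.99% of the counts in WT-NCD 1, 2 and 3 and at most 0.00169% elsewhere. Liver genes reached 0.165% in KO-HFD 2 and 0.0623% in KO-NCD 2, where 7 ciliated epithelium genes also summed to 35.96 and 62.6 CPM against 1.66 to 12.5 CPM in the other libraries. These 5 libraries therefore held RNA that other organs express. Collagen calls that rest on them are also given without WT-NCD 1 and 2, or without KO-HFD 2 and KO-NCD 2. WT-NCD 3 stayed in the fit without WT-NCD 1 and 2, so no fit had a WT-NCD group free of seminal vesicle RNA. Liver genes also held 0.0178% in KO-HFD 1 and 0.0279% in KO-HFD 3, against 0.00065% to 0.00548% in WT-HFD. Leaving out KO-HFD 2 thus does not remove these transcripts from KO-HFD. Gja1 was at 67.2, 96.8 and 65.7 CPM in KO-HFD and 68.8, 65.8 and 68.1 in WT-HFD, and at 48.9, 149.8 and 67.1 in KO-NCD and 73.8, 76.8 and 83.6 in WT-NCD. No difference was detected between genotypes (adjusted p = 0.741 on HFD and 0.736 on NCD, edgeR's quasi-likelihood test), and a whole-tissue level does not check a deletion limited to myeloid cells. The highest Gja1 values were in KO-NCD 2 and KO-HFD 2, the libraries with the most liver RNA, and the test is not given without them. KO-NCD 1 and KO-NCD 3 lay under every WT-NCD library. None of 9 adipocyte markers was at 0 in any library. All the tests below are edgeR's quasi-likelihood test in a fit of the 12 libraries, and the adjusted p is by Benjamini-Hochberg over all 16352 genes tested. A gene with an adjusted p under 0.05 is called higher or lower, and SE is the standard error of the log2 fold change.

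The collagen genes together took about 1% of all counts, and their sum was highest in WT-HFD and lowest in WT-NCD. Summed over the 43 genes, the level was 10100 ± 1750 CPM in KO-HFD and 11400 ± 1640 in WT-HFD, and 8360 ± 480 in KO-NCD and 7190 ± 1010 in WT-NCD (SD, n = 3 each). The fibrillar chains summed to 4190 ± 909 CPM in KO-HFD and 5400 ± 973 in WT-HFD, and 3600 ± 367 in KO-NCD and 2650 ± 326 in WT-NCD, and no WT-HFD library overlapped the WT-NCD group. Type VI chains summed to 1770 ± 273 CPM in KO-HFD and 1780 ± 515 in WT-HFD, and 1430 ± 98.4 in KO-NCD and 1020 ± 283 in WT-NCD. Type IV chains summed to 2970 ± 569 CPM in KO-HFD and 3330 ± 203 in WT-HFD, and 2380 ± 483 in KO-NCD and 2470 ± 390 in WT-NCD. The remaining chains held 1190 ± 144 CPM in KO-HFD and 856 ± 213 in WT-HFD, and 949 ± 196 in KO-NCD and 1050 ± 196 in WT-NCD. The 2 HFD groups overlapped in every class, and the sums carry no test. As a share of raw counts, collagen genes held 1.05 ± 0.169% in KO-HFD and 1.19 ± 0.153% in WT-HFD, and 0.875 ± 0.0418% in KO-NCD and 0.63 ± 0.0917% in WT-NCD (SD, n = 3 each).

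**Figure D1:**
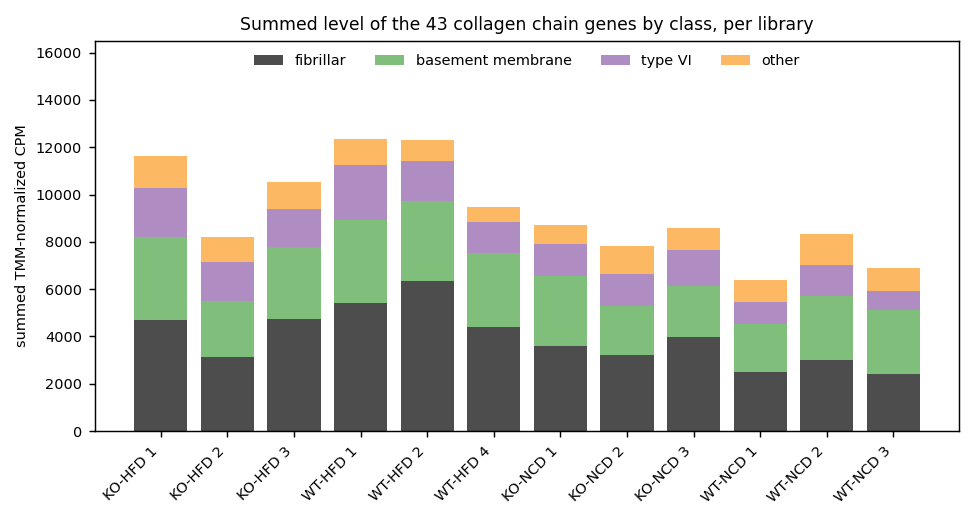
Summed TMM-normalized CPM of the 43 collagen chain genes in each library (bars, from 0), split into fibrillar, basement membrane, type VI and other chains, with groups from left to right KO-HFD, WT-HFD, KO-NCD and WT-NCD. Fibrillar chains summed to 4411 to 6356 CPM in the WT-HFD libraries and to 2407 to 3017 CPM in the WT-NCD libraries.

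Compared per kilobase of transcript (CPM per kb, on the longest principal protein-coding transcript of GENCODE M21), the order of the chains was not the same in all groups. Col3a1, the type III chain, ranked first over the 12 libraries, at 327 ± 95.6 CPM per kb in KO-HFD and 480.1 ± 116 in WT-HFD, and at 279.7 ± 41.5 in KO-NCD and 198 ± 13.3 in WT-NCD (SD, n = 3 each). In WT-NCD, the type IV chain Col4a1 had a per-kilobase level of 224 ± 36.5 CPM per kb, which overlapped that of Col3a1. The next in the overall order of per-kilobase levels were Col4a2, Col6a1, Col6a2, Col15a1, Col1a2, Col5a3 and Col1a1. Col15a1, which encodes a chain that anchors basement membranes to fibrils, held 161 ± 30.5 CPM per kb in WT-NCD, above Col1a2 at 69.1 ± 4.48 and Col1a1 at 27.2 ± 2.81 there. In WT-HFD the order was turned round, with Col15a1 at 75.8 ± 24.6 CPM per kb, Col1a2 at 167 ± 35.2 and Col1a1 at 105 ± 10.8. Type I is built of Col1a1 and Col1a2 chains, and per kilobase the mean of Col1a2 exceeded that of Col1a1 in every group. At the low end, 6 genes did not pass the filter on low counts and were not tested: Col2a1, Col11a1, Col9a1 and Col10a1, which are best known from cartilage, and Col19a1 and Col25a1. Each of these 6 was at 0 in at least 2 libraries, a count that allows up to 3 reads, so their absence from those libraries was not shown.

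HFD in WT mice raised 6 of 9 fibrillar and 3 of 6 fibril-associated genes tested, and single chains of other classes were higher or lower. This comparison asks what obesity-inducing diet does to collagen transcripts in gWAT. Of 37 genes tested, 13 were higher in WT-HFD mice relative to WT-NCD mice, against 17.6% of all genes tested, and 5, Col6a6, Col7a1, Col13a1, Col15a1 and Col17a1, were lower, a share under the 18.4% of all genes. The median log2 fold change of the 37 was 0.47, beside 0 over all genes. Of the 9 fibrillar genes tested 6 were higher and 0 lower, with a median log2 fold change of 1.26. None of the 6 type IV genes was called in either direction by edgeR, and the DESeq2 Wald test called Col4a2 higher and Col4a3 lower. In edgeR's test 2 of the 6 had an unadjusted p under 0.05, 1 higher and 1 lower, beside 3643 higher and 3778 lower of all 16352 genes. For 15 of the 37 genes every WT-HFD library lay above every WT-NCD library, against 23.5% of all genes, and for 7 every one lay below, against 24.6%.

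**Figure D2:**
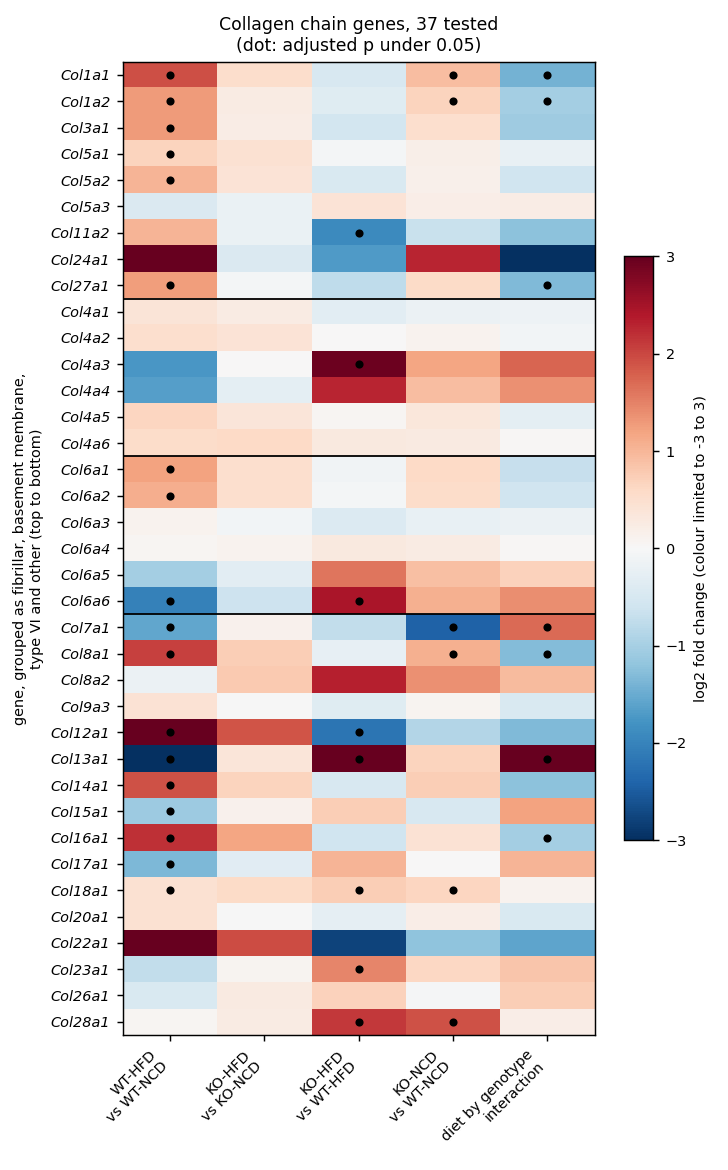
Log2 fold change (colour, limited to -3 to 3) of the 37 tested collagen genes (rows, fibrillar, basement membrane, type VI and other from top to bottom) in the 4 comparisons and the diet by genotype interaction (columns), with a dot where the adjusted p was under 0.05. The column of WT-HFD against WT-NCD holds 18 dots and that of KO-HFD against KO-NCD holds 0. The colour of Col13a1 is a fitted value, since WT-HFD had no count of that gene.

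The type I and III chains, which form the bulk of interstitial fibrils, rose without overlap between the WT groups. Col1a1 was at 442, 331 and 553 CPM in KO-HFD and 595, 693 and 573 in WT-HFD, and at 325, 264 and 330.0 in KO-NCD and 155, 180.4 and 149 in WT-NCD. All 6 KO libraries lay between the WT groups, above the highest WT-NCD library and under the lowest WT-HFD library. The 3.84-fold increase in WT-HFD (log2 fold change 1.94, SE 0.19, adjusted p = 8.87e-05) had the smallest adjusted p of the collagen genes in this comparison. Col1a2, its partner in the type I trimer, was at 659, 579.8 and 859.7 CPM in KO-HFD and 828, 1105 and 747 in WT-HFD, and at 529, 529 and 712 in KO-NCD and 368, 395 and 347 in WT-NCD. It rose 2.42-fold (log2 fold change 1.27, SE 0.20, adjusted p = 0.000812), again without overlap between the WT groups. Col3a1, whose product mixes with type I in thin fibrils, was at 2195, 1211 and 2051 CPM in KO-HFD and 2548, 3368 and 2098 in WT-HFD, and at 1668, 1291 and 1709.9 in KO-NCD and 1043, 1184 and 1074 in WT-NCD. WT-HFD again lay wholly above WT-NCD, 2.43-fold on average (log2 fold change 1.28, SE 0.24, adjusted p = 0.00253), and the highest KO-HFD library exceeded the lowest of WT-HFD.

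Type V chains, which nucleate fibrils and set their diameter, split. Col5a1 was at 493, 321 and 349 CPM in KO-HFD and 481, 431 and 291 in WT-HFD, and at 292, 273 and 282 in KO-NCD and 222, 311 and 220.0 in WT-NCD. The WT groups overlapped through WT-HFD 4 and WT-NCD 2, and the increase was small (log2 fold change 0.68, SE 0.22, adjusted p = 0.0338) and called in 6 of 12 alternative fits. Col5a2 was at 339.8, 181 and 258 CPM in KO-HFD and 381, 370.5 and 316 in WT-HFD, and at 202, 179 and 206 in KO-NCD and 161, 184 and 184 in WT-NCD. Here the WT groups did not overlap, with a 2.02-fold rise in WT-HFD (log2 fold change 1.01, SE 0.19, adjusted p = 0.00247). Col5a3, a type V chain found in adipose tissue, went uncalled at 534, 510.3 and 678 CPM in KO-HFD and 577, 361 and 353 in WT-HFD, and at 577, 683 and 713 in KO-NCD and 554, 750.4 and 425 in WT-NCD (log2 fold change -0.42, SE 0.24, adjusted p = 0.2). Its WT-HFD mean, unlike those of the other type V chains, lay under its WT-NCD mean, and the groups overlapped. Col27a1, a minor fibrillar chain, completed the 6 and was at 12.9, 11.6 and 7.65 CPM in KO-HFD and 12.4, 20.3 and 21.8 in WT-HFD, and at 10.7, 12.6 and 10.4 in KO-NCD and 7.09, 9.97 and 5.70 in WT-NCD. It was 2.39-fold higher in WT-HFD (log2 fold change 1.26, SE 0.28, adjusted p = 0.00522). Col11a2 and Col24a1, which are fibrillar chains at low level here, were not called, at 3.51 to 6.10 CPM in WT-HFD and 2.26 to 2.50 CPM in WT-NCD for Col11a2, and at 0.143 to 4.58 CPM in WT-HFD and 0.0824 to 0.325 CPM in WT-NCD for Col24a1.

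Chains that sit on fibril surfaces (the FACIT collagens) included the largest rise among the 13 genes. Col12a1, which encodes a FACIT of dense and stressed connective tissue, was at 20.9, 11.2 and 12.6 CPM in KO-HFD and 73.5, 49.9 and 79.6 in WT-HFD, and at 3.92, 5.50 and 2.69 in KO-NCD and 6.11, 10.7 and 5.31 in WT-NCD. WT-HFD stood far above the other groups, none of which overlapped it, and Col12a1 rose 9.15-fold (log2 fold change 3.19, SE 0.37, adjusted p = 0.000185). Col16a1, a FACIT found near both fibrils and basement membranes, was at 62.1, 37.4 and 54.7 CPM in KO-HFD and 97.02, 75.2 and 60.6 in WT-HFD, and at 18.9, 24.2 and 25.00 in KO-NCD and 17.7, 18.99 and 14.2 in WT-NCD. The WT groups did not overlap, and it rose 4.58-fold (log2 fold change 2.19, SE 0.23, adjusted p = 0.00012). Col14a1, which helps to regulate fibril growth, was at 58.8, 41.7 and 64.3 CPM in KO-HFD and 90.3, 106 and 33.8 in WT-HFD, and at 29.5, 48.04 and 25.7 in KO-NCD and 18.3, 25.6 and 17.7 in WT-NCD. Its rise was 3.74-fold (log2 fold change 1.91, SE 0.39, adjusted p = 0.00385), with WT-HFD libraries from 33.8 to 106 CPM that all lay above those of WT-NCD. Of the 6 FACIT genes tested, 3 rose, 0 fell and 3, Col9a3, Col20a1 and Col22a1, were not called. The short-chain collagen Col8a1, a product of vessel walls and of remodelling matrix, was at 28.98, 21.5 and 29.1 CPM in KO-HFD and 38.1, 29.7 and 25.9 in WT-HFD, and at 18.99, 18.1 and 10.6 in KO-NCD and 6.64, 8.62 and 7.33 in WT-NCD. It rose 4.15-fold without overlap of the WT groups (log2 fold change 2.05, SE 0.24, adjusted p = 0.00018).

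Among the type VI genes, the chains moved apart from each other. Col6a1 was at 896, 650.3 and 685 CPM in KO-HFD and 1025, 760.2 and 616 in WT-HFD, and at 576, 478 and 511 in KO-NCD and 329, 447 and 262 in WT-NCD. WT-HFD lay wholly above WT-NCD, by 2.31-fold on average (log2 fold change 1.21, SE 0.23, adjusted p = 0.00266). Col6a2, which pairs with Col6a1 in the microfilament, was at 805, 514 and 612 CPM in KO-HFD and 929, 599 and 472 in WT-HFD, and at 468, 432 and 472 in KO-NCD and 292, 401 and 239.7 in WT-NCD. The WT groups did not overlap, and it rose 2.15-fold (log2 fold change 1.10, SE 0.27, adjusted p = 0.00888). Col6a3, the large chain of the classical trimer, from which the fragment endotrophin is cut, was at 259.7, 157 and 162 CPM in KO-HFD and 299.8, 279 and 190.3 in WT-HFD, and at 226, 231 and 155 in KO-NCD and 185, 321 and 208 in WT-NCD. Its WT groups overlapped completely and no difference was detected (log2 fold change 0.10, SE 0.28, adjusted p = 0.799). Col6a6, an alternative chain that can take the place of Col6a3, fell, at 27.8, 45.1 and 18.7 CPM in KO-HFD and 11.8, 3.86 and 1.17 in WT-HFD, and at 24.2, 50.6 and 66.98 in KO-NCD and 15.7, 33.5 and 18.7 in WT-NCD. Its 3 WT-HFD libraries lay under all those of WT-NCD, 4.05-fold lower on average (log2 fold change -2.02, SE 0.70, adjusted p = 0.0446), but 9 of 12 alternative fits lost that call. Col6a5, a related chain, likewise lay lower in every WT-HFD library, at 33.5 to 67.8 CPM against 80.4 to 141 CPM in WT-NCD, and was not called (adjusted p = 0.131).

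**Figure D3:**
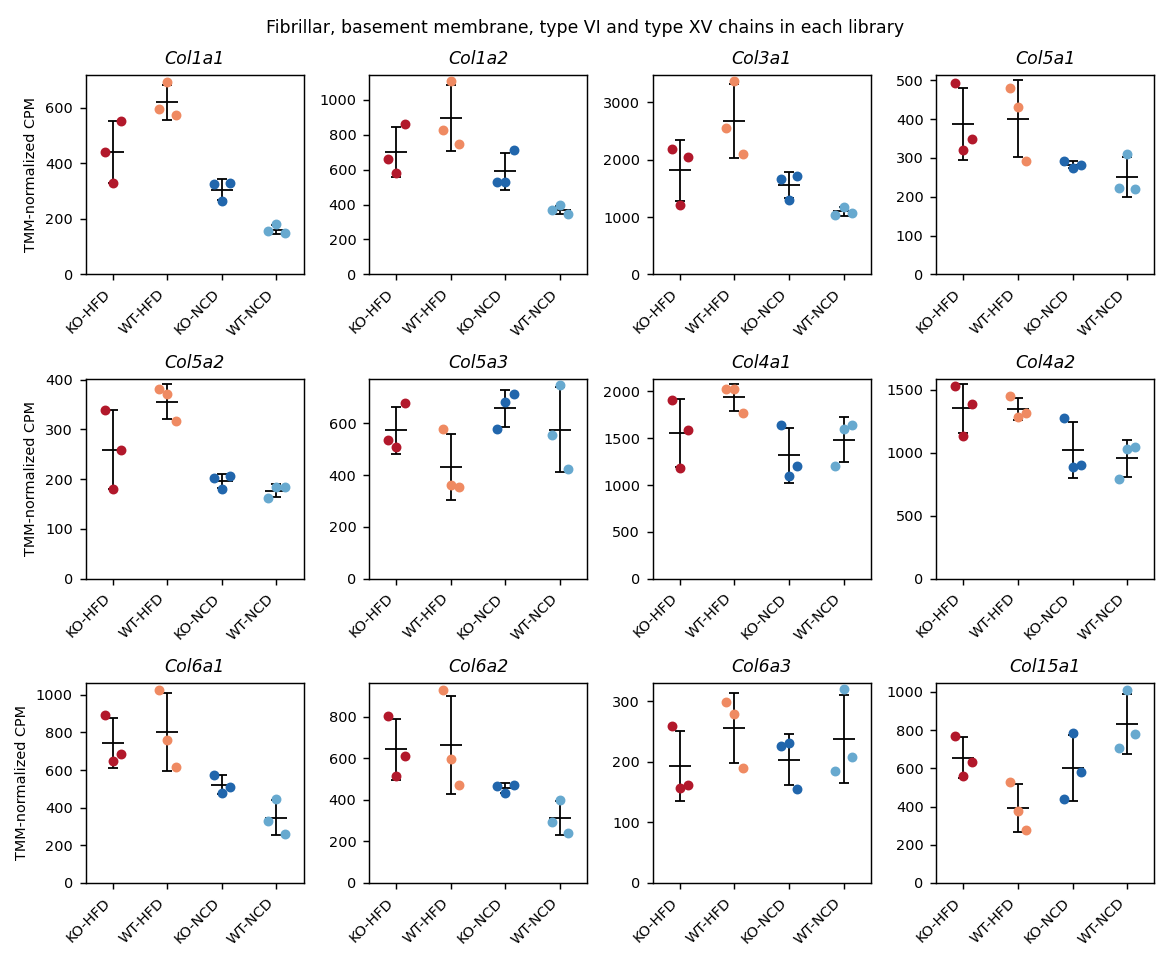
TMM-normalized CPM (y axis, from 0) of 12 chains in each library (points) with the group mean and SD (black bars), groups from left to right KO-HFD, WT-HFD, KO-NCD and WT-NCD. Col1a1 stood at 573 to 693 CPM in WT-HFD and at 149 to 180.4 CPM in WT-NCD, whereas the groups of Col4a1, Col5a3 and Col6a3 lay close together.

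No type IV chain of the basement membrane was called between diets in WT mice by edgeR. Col4a1, which forms the major type IV trimer with Col4a2, was at 1906, 1179 and 1589 CPM in KO-HFD and 2021, 2023 and 1770.2 in WT-HFD, and at 1646, 1099.7 and 1205 in KO-NCD and 1205, 1598 and 1645 in WT-NCD. Its partner Col4a2 was at 1525, 1135 and 1389 CPM in KO-HFD and 1445, 1283 and 1310.0 in WT-HFD, and at 1275, 883 and 899 in KO-NCD and 787, 1029 and 1046 in WT-NCD. Every WT-HFD library lay above every WT-NCD library for both, but by 1.31-fold (log2 fold change 0.39, SE 0.21, adjusted p = 0.185) and 1.41-fold (log2 fold change 0.50, SE 0.18, adjusted p = 0.0555), and neither was called. Col4a3 and Col4a4 lay lower in every WT-HFD library than in any WT-NCD library, by 3.37-fold (log2 fold change -1.75, SE 0.77, adjusted p = 0.0992) and 3.15-fold (log2 fold change -1.66, SE 0.91, adjusted p = 0.183), also without a call. Col15a1 and Col18a1, the multiplexin chains of basement membrane zones from which endostatin-like fragments are cut, went opposite ways in WT mice. Col15a1 was at 770.3, 559 and 635 CPM in KO-HFD and 527, 374 and 275 in WT-HFD, and at 441, 787 and 578 in KO-NCD and 708, 1010.1 and 781 in WT-NCD. All WT-HFD libraries were under those of WT-NCD, 2.13-fold on average (log2 fold change -1.09, SE 0.27, adjusted p = 0.0102). Col18a1 was at 347, 303 and 281 CPM in KO-HFD and 213, 197 and 145 in WT-HFD, and at 210.3, 203 and 212 in KO-NCD and 128, 161 and 113 in WT-NCD, a 1.38-fold rise on HFD with overlapping WT groups (log2 fold change 0.47, SE 0.17, adjusted p = 0.048) that 8 of 12 alternative fits did not call.

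The other chains that fell in WT-HFD were at low levels. Col7a1, the anchoring fibril chain of epithelia, was at 1.38, 1.83 and 1.72 CPM in KO-HFD and 2.06, 3.20 and 2.92 in WT-HFD, and at 1.09, 1.66 and 1.73 in KO-NCD and 8.80, 11.01 and 4.44 in WT-NCD. Its WT-NCD values follow the order of the seminal vesicle share in these libraries, and the smooth muscle markers, with 7 genes summed to 300.4 to 991 CPM in WT-NCD and to 255 to 362 CPM in WT-HFD, were also high there. The part of such RNA in the Col7a1 difference (log2 fold change -1.56, SE 0.34, adjusted p = 0.00528) was not tested, and without WT-NCD 1 and 2 its log2 fold change was -0.70 (adjusted p = 0.273). Col17a1, the transmembrane collagen of epithelial hemidesmosomes, was at 0.962, 1.65 and 1.04 CPM in KO-HFD and 0.838, 0.431 and 0.521 in WT-HFD, and at 1.13, 1.86 and 1.64 in KO-NCD and 1.41, 2.37 and 0.780 in WT-NCD. The WT groups overlapped in part (log2 fold change -1.35, SE 0.46, adjusted p = 0.0419), and the call held in 5 of 12 alternative fits. Col13a1, another transmembrane chain, was at 0.391, 0.634 and 0.826 CPM in KO-HFD and 0, 0 and 0 in WT-HFD, and at 0.101, 1.20 and 0.125 in KO-NCD and 0.466, 0.247 and 0.195 in WT-NCD. With 0 counts in the 3 WT-HFD libraries and 54 in WT-NCD, it was at least 17.4-fold lower in WT-HFD (adjusted p = 0.00833, against a floor of 3 counts over the group).

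The counts of this comparison depended on WT-NCD 1 and 2, which held most of the seminal vesicle RNA. Leaving out WT-HFD 2, WT-HFD 4, WT-NCD 1 or WT-NCD 2 singly gave 3 genes lower in each case. Without both WT-NCD 1 and 2, a single WT-NCD library remained and was assumed to vary like the other groups, and 8 collagen genes were higher and 0 lower. The 8 were Col1a1, Col1a2, Col27a1, Col6a1, Col6a2, Col8a1, Col12a1 and Col16a1, and their log2 fold changes were then 1.37 to 3.67. The 5 no longer called higher had log2 fold changes of 1.31 for Col3a1, 0.87 for Col5a1, 0.95 for Col5a2, 2.12 for Col14a1 and 0.71 for Col18a1, beside 1.28, 0.68, 1.01, 1.91 and 0.47 with all libraries, at adjusted p of 0.0645 to 0.106. Of the 5 no longer called lower, Col15a1 was then at -0.996 (adjusted p = 0.115) and Col6a6 at -1.74 (adjusted p = 0.257), beside -1.09 and -2.02, while Col7a1 was at -0.70 and Col17a1 at -0.39, beside -1.56 and -1.35. Col13a1, with 0 counts in WT-HFD, had an adjusted p of 0.0694. WT-NCD 3, the library with the least seminal vesicle RNA, had the lowest Col1a1, Col1a2, Col6a1 and Col6a2 of the 3. It also had the highest Col4a1 and Col4a2, while Col3a1 and Col8a1 were lowest in WT-NCD 1. The part of seminal vesicle RNA in these levels was not tested. Markers of several cell types moved with the same comparison. Of 13 macrophage markers 10 were higher, at a summed 3130 to 6140 CPM in WT-HFD against 1130 to 1230 CPM in WT-NCD. Of 11 fibroblast and progenitor markers 3 were higher, at 1010 to 1550 CPM in WT-HFD against 666 to 869 CPM in WT-NCD, and of 9 adipocyte markers 7 were lower, at 10400 to 19200 CPM in WT-HFD against 35300 to 44900 CPM in WT-NCD. None of these markers was at 0 in any library. Of 7 neutrophil markers tested 5 were higher, at a summed 25.3 to 505 CPM in WT-HFD against 12.8 to 15.7 CPM in WT-NCD, with WT-HFD 2 and 4 far above WT-HFD 1, and the defining Ly6g was at 0 in all WT-NCD libraries and in WT-HFD 1. Of 5 pericyte markers 3 were lower, at 313 to 486 CPM in WT-HFD against 506 to 704 CPM in WT-NCD, and of 7 smooth muscle markers 5 were lower, at 255 to 362 CPM in WT-HFD against 300.4 to 991 CPM in WT-NCD. Their part in the collagen differences was not tested, and in bulk tissue more cells of a type and more RNA per cell cannot be told apart.

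The promoters of members that moved together, and of members that moved otherwise, are shown to let their sequence be compared. RefSeq promoter windows (GRCm38.p6, 250 bases before to 50 after the start) were found for 34 of the 43 genes. The 250 bases before the start are printed for Col1a2, Col3a1, Col8a1 and Col16a1, which rose in WT-HFD, for Col15a1, which fell there, and for Col28a1, which was higher in KO libraries. Capitals mark CCAAT (the box bound by NF-Y), GGGCGG (a GC box) and TATAAA on either strand. The windows lie at chr6:4505368-4505617 (plus strand) for Col1a2, chr1:45311288-45311537 (plus strand) for Col3a1, chr16:57754738-57754987 (minus strand) for Col8a1, chr4:130047590-130047839 (plus strand) for Col16a1, chr4:47207762-47208011 (plus strand) for Col15a1 and chr6:8192618-8192867 (minus strand) for Col28a1.
Col1a2: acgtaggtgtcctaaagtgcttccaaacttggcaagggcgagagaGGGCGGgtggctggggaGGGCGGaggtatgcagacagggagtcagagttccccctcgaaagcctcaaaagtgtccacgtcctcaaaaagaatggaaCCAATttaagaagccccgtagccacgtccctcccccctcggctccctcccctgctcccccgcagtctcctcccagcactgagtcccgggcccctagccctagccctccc
Col3a1: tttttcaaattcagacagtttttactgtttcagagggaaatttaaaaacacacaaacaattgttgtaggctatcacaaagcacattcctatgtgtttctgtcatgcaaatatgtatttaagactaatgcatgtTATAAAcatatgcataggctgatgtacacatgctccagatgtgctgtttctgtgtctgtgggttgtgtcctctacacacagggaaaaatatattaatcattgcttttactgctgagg
Col8a1: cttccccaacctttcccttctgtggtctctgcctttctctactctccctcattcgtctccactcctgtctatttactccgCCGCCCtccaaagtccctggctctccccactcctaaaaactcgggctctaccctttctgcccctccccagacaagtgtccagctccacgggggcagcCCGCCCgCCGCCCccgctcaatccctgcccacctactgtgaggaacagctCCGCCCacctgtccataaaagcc
Col16a1: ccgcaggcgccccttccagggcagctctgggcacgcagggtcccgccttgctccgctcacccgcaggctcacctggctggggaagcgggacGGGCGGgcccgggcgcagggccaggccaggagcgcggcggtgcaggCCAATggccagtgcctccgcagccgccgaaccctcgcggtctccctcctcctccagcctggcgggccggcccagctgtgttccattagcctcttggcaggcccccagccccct
Col15a1: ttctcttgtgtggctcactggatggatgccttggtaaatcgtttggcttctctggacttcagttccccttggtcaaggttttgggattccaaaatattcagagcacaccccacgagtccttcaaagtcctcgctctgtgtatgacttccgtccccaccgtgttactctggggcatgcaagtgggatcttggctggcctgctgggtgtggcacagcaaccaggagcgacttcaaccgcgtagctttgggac
Col28a1: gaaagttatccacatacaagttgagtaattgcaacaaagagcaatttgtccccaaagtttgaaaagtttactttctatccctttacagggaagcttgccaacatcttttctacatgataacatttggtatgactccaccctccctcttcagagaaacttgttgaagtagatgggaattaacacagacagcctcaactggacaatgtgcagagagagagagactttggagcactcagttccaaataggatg

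The 4 genes that rose did not share a set of these letters. Col8a1 held 4 GC boxes, all on the opposite strand, Col1a2 held 2 GC boxes and a CCAAT box, Col16a1 held 1 of each in the printed stretch, and Col3a1 held a TATAAA alone. Col15a1 and Col28a1 held none of the 3. Over all member windows, GGGCGG or its reverse complement CCGCCC was present in 22 of 37 (59.5%) against 35.7% of 32851 windows of the same length. CCAAT or ATTGG was present in 13 of 37 (35.1%) against 37.4%, and TATAAA or TTTATA in 5 of 37 (13.5%) against 13.6%. These are counts of letters and say nothing of which factor is bound.

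Collagen genes often lie near each other in the genome (GENCODE M21, GRCm38), and neighbours could then be compared. Col4a1 and Col4a2 stand head to head on chromosome 8 with annotated ends that overlap by 22 bases, so reads there could not be told apart if strand was not used in counting. Col4a3 and Col4a4 are divergent on chromosome 1 with 71 bases between them, and Col4a5 and Col4a6 on chromosome X with 1308 bases. Members of these pairs had similar log2 fold changes in WT-HFD against WT-NCD, 0.39 and 0.50 for Col4a1 and Col4a2, -1.75 and -1.66 for Col4a3 and Col4a4, and 0.65 and 0.56 for Col4a5 and Col4a6. None of these 6 was called there. Col3a1 and Col5a2 are tail to tail on chromosome 1 with 24614 bases between their ends, and both rose in WT-HFD. Col6a1 and Col6a2, on chromosome 10 with 85161 bases between them, did so too. Col6a4, Col6a5 and Col6a6 follow each other on chromosome 9, with log2 fold changes of 0.06, -1.02 and -2.02.

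In KO mice, HFD gave no collagen gene an adjusted p under 0.05. This comparison asks whether the diet acts on collagen transcripts in mice of the KO genotype. By edgeR's quasi-likelihood test 0 of 37 genes were higher and 0 lower in KO-HFD than in KO-NCD, against 0.0245% and 0.00612% of all genes tested. At an unadjusted p under 0.05, 7 were higher and 0 lower, beside 788 higher and 743 lower of all 16352 genes tested. The DESeq2 Wald test called 3 higher, Col12a1, Col16a1 and Col18a1, and 0 lower, beside 317 calls over all genes. Every KO-HFD library lay above every KO-NCD library for 8 of the 37 genes, against 8.52% of all genes, and below for 0, against 8.95%. The median log2 fold change of the 37 was 0.25, beside -0.01 over all genes.

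The KO values of the chains that rose in WT mice are given above. Col12a1, at 11.2 to 20.9 CPM in KO-HFD and 2.69 to 5.50 CPM in KO-NCD, was 3.68-fold apart (log2 fold change 1.88, SE 0.36, adjusted p = 0.121). Col16a1 was 2.26-fold apart (log2 fold change 1.18, SE 0.22, adjusted p = 0.12), Col8a1 1.67-fold (log2 fold change 0.74, SE 0.23, adjusted p = 0.344) and Col1a1 1.44-fold (log2 fold change 0.53, SE 0.18, adjusted p = 0.375), each with all KO-HFD libraries above all KO-NCD libraries. Col18a1, at 281 to 347 CPM in KO-HFD and 203 to 212 CPM in KO-NCD, did not overlap either (log2 fold change 0.57, SE 0.17, adjusted p = 0.3). The type III chain Col3a1 overlapped between the KO groups (log2 fold change 0.23, SE 0.24, adjusted p = 0.825), as did Col1a2 (log2 fold change 0.25, SE 0.19, adjusted p = 0.753) and Col15a1 (log2 fold change 0.12, SE 0.27, adjusted p = 0.933). KO-HFD and KO-NCD libraries of number 1 and of number 2 resembled each other, and those of number 3 hardly more than libraries of unlike number. With the number as a block in the 6 KO libraries, 0 collagen genes were called as well. Macrophage markers, 0 of 13 called, summed to 1150 to 2400 CPM in KO-HFD and 1310 to 2060 CPM in KO-NCD.

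The diet by genotype interaction tests the difference between the diet effects directly, as KO-HFD minus KO-NCD less WT-HFD minus WT-NCD on the log2 scale. It was negative for the type I chains and a few chains that rose with them in WT mice. Of 37 genes, 5 had a negative and 2 a positive interaction with an adjusted p under 0.05, against 8.57% and 9.12% of all genes tested. The diet effect of Col1a1 was smaller in KO mice by 1.41 on the log2 scale (interaction -1.41, SE 0.26, adjusted p = 0.00646), and this call was kept in 18 of 18 alternative fits. The other 4 were Col8a1 (-1.31, SE 0.33, adjusted p = 0.0208), Col1a2 (-1.03, SE 0.28, adjusted p = 0.0284), Col27a1 (-1.33, SE 0.39, adjusted p = 0.0382) and Col16a1 (-1.02, SE 0.31, adjusted p = 0.0449). Col3a1 came near the threshold (-1.05, SE 0.34, adjusted p = 0.0557), and so did Col15a1 in the opposite direction (1.21, SE 0.38, adjusted p = 0.0513). The interaction is also the KO minus WT difference on HFD less that on NCD. For Col1a1, Col1a2 and Col8a1 this difference was 0.92, 0.67 and 1.08 on NCD and -0.49, -0.35 and -0.235 on HFD. For Col27a1 and Col16a1 it was 0.57 and 0.42 on NCD and -0.76 and -0.59 on HFD. None of these HFD differences was called by edgeR. Positive interactions were called for Col7a1 (1.70, SE 0.48, adjusted p = 0.0342) and for Col13a1, whose WT-HFD libraries were all at 0. Among the 6 type IV and 6 type VI genes, edgeR called 0 interactions and found 0 at an unadjusted p under 0.05, and the DESeq2 Wald test called 0. Over all genes, 5327 of 16352 had an unadjusted p under 0.05 in edgeR's test, and the DESeq2 Wald test called 4098. Without WT-NCD 1 and 2 the Col1a1 interaction was -1.52 (adjusted p = 0.0475), and it was the only collagen interaction left. The calls of Col8a1, Col1a2, Col27a1 and Col16a1 were kept in 13, 10, 6 and 4 of 18 alternative fits. Negative calls numbered 1 without WT-NCD 1, 3 without KO-HFD 3, and 2 without KO-HFD 2, WT-HFD 2, KO-NCD 1, KO-NCD 3 or WT-NCD 3. Positive calls numbered 0 without KO-HFD 2, KO-HFD 3, WT-HFD 4 or WT-NCD 1, and 1 without WT-HFD 2, KO-NCD 1, KO-NCD 3 or WT-NCD 2.

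**Figure D4:**
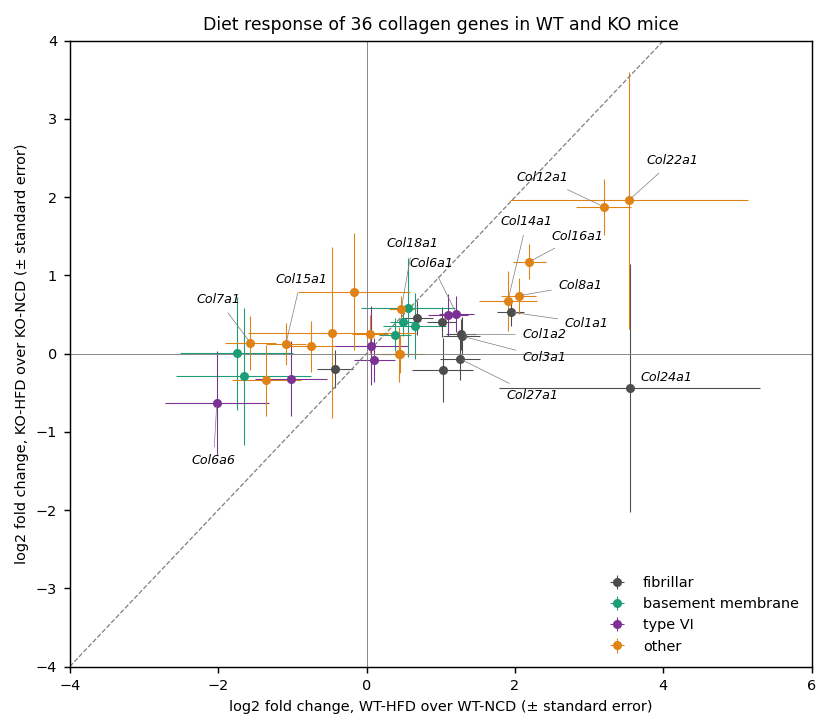
Log2 fold change of HFD over NCD in KO mice (y axis) against that in WT mice (x axis) for 36 tested collagen genes, with standard errors as bars, colours for the 4 classes and a dashed line where both are equal. Col13a1 is left out because WT-HFD had no count of it. Col1a1, Col1a2, Col3a1, Col8a1, Col12a1 and Col16a1 lie to the right of the dashed line, with WT values of 1.27 to 3.19 and KO values of 0.23 to 1.88, and the WT and KO values share no library.

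On HFD, a few chains of low to middle level set KO apart from WT, while most fibrillar chains did not pass the test. This comparison asks how KO and WT mice differ on HFD. It cannot separate the deletion from a possible difference in strain background or, if the labels are complete, from tamoxifen. Of the 37 genes 6 were higher in KO-HFD than in WT-HFD, against 7.99% of all genes tested, and 2 were lower, against 7.72%. Every KO-HFD library lay above every WT-HFD library for 11 genes, against 19.3% of all genes, and below for 5, against 17.0%. The median log2 fold change of the 37 was -0.05, beside 0.02 over all genes. Of 9 fibrillar genes 0 were higher and 1 was lower, and a further 4 had an unadjusted p under 0.05 with lower values in KO-HFD. Over all 16352 genes tested, 2579 were lower at an unadjusted p under 0.05, called genes included.

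Col28a1 was higher in KO mice on both diets, with the smallest adjusted p of the collagen genes in each genotype comparison. Its product, a type XXVIII chain with von Willebrand factor A domains, is known from the sheaths of peripheral nerve. It was at 33.5, 60.8 and 43.5 CPM in KO-HFD and 14.5, 8.51 and 8.95 in WT-HFD, and at 35.5, 42.7 and 37.7 in KO-NCD and 8.99, 12.1 and 9.78 in WT-NCD. All 6 KO libraries lay above all 6 WT libraries, whatever the diet. Col28a1 was 4.32-fold higher in KO-HFD than in WT-HFD (log2 fold change 2.11, SE 0.25, adjusted p = 0.00168) and 3.75-fold higher in KO-NCD than in WT-NCD (log2 fold change 1.91, SE 0.25, adjusted p = 0.00363). Its diet effect was small in both genotypes, with log2 fold changes of 0.25 (SE 0.24) in KO mice and 0.05 (SE 0.25) in WT mice, and the interaction was 0.20 (SE 0.34, adjusted p = 0.73). Of 6 Schwann cell markers 0 were called between genotypes on either diet, at a summed 326 to 402 CPM in KO-HFD and 180.2 to 339.8 in WT-HFD, and at 343 to 471 in KO-NCD and 436 to 491 in WT-NCD.

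Col12a1 and Col11a2 were the chains called lower in KO-HFD. At 20.9, 11.2 and 12.6 CPM in KO-HFD against 73.5, 49.9 and 79.6 CPM in WT-HFD, Col12a1 was 4.54-fold lower (log2 fold change -2.18, SE 0.36, adjusted p = 0.00481), and this call, like that of Col28a1, was kept in 12 of 12 alternative fits. Col11a2, a fibrillar chain best known from cartilage, was at 1.61, 0.651 and 1.69 CPM in KO-HFD and 3.51, 5.14 and 6.10 in WT-HFD, and at 0.849, 1.67 and 2.02 in KO-NCD and 2.50, 2.47 and 2.26 in WT-NCD. It was lower in every KO-HFD library than in any WT-HFD library (log2 fold change -1.90, SE 0.42, adjusted p = 0.0157). Col1a1 showed the same arrangement without a call (log2 fold change -0.49, SE 0.18, adjusted p = 0.088). Col1a2, Col3a1 and Col5a2 overlapped between the HFD groups, at 1.28-fold, 1.47-fold and 1.37-fold lower on average in KO-HFD with adjusted p of 0.23, 0.135 and 0.123. Col6a1 and Col6a2 were at nearly the same mean, with log2 fold changes of -0.11 (SE 0.23) and -0.05 (SE 0.26).

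Beside Col28a1, the genes called higher in KO-HFD were Col18a1, Col23a1, Col13a1, Col4a3 and Col6a6. Col18a1, listed above, was 1.67-fold higher without overlap (log2 fold change 0.74, SE 0.17, adjusted p = 0.0164). Col23a1, a transmembrane collagen, was at 6.94, 13.5 and 10.5 CPM in KO-HFD and 5.44, 2.47 and 3.31 in WT-HFD, and at 8.94, 11.1 and 9.02 in KO-NCD and 6.80, 7.58 and 4.44 in WT-NCD, 2.76-fold higher on HFD (log2 fold change 1.47, SE 0.33, adjusted p = 0.0171). Col13a1, with 0 counts in WT-HFD and 109 in KO-HFD, was at least 35.1-fold higher (adjusted p = 0.0128). Col4a3, a chain of the specialised type IV trimer of kidney and lung, was at 4.21, 5.78 and 2.16 CPM in KO-HFD and 0.817, 0.570 and 0.186 in WT-HFD, and at 1.15, 8.50 and 2.43 in KO-NCD and 1.09, 2.77 and 1.45 in WT-NCD. It was 7.7-fold higher in KO-HFD (log2 fold change 2.94, SE 0.79, adjusted p = 0.0324). Its highest values were in KO-HFD 2 and KO-NCD 2, the libraries with the most liver and ciliated epithelium RNA, and the part of that RNA was not tested. Col6a6 was 5.45-fold higher in KO-HFD (log2 fold change 2.45, SE 0.71, adjusted p = 0.0417). Col6a5, at 98.6 to 245 CPM in KO-HFD against 33.5 to 67.8 CPM in WT-HFD, and the short-chain Col8a2, at 7.58 to 10.7 CPM in KO-HFD against 1.04 to 2.68 CPM in WT-HFD, did not overlap either but were not called (adjusted p = 0.0512 and 0.0672). Col15a1 was likewise apart without a call (log2 fold change 0.74, SE 0.27, adjusted p = 0.0856). Without KO-HFD 2 and KO-NCD 2, Col28a1 and Col13a1 were the 2 genes called higher and Col12a1 the 1 called lower. The 5 that lost their call had log2 fold changes of 0.76 for Col18a1, 2.60 for Col4a3, 1.23 for Col23a1, 2.05 for Col6a6 and -1.58 for Col11a2 then, beside 0.74, 2.94, 1.47, 2.45 and -1.90 with all libraries, at adjusted p of 0.0502 to 0.139. Without WT-HFD 4 the same 3 genes were called, and without KO-HFD 1 or KO-HFD 2 singly 3 genes were higher. Macrophage markers, 9 of 13 lower, summed to 1150 to 2400 CPM in KO-HFD and 3130 to 6140 CPM in WT-HFD. Adipocyte markers, 4 of 9 higher, summed to 24400 to 28100 CPM in KO-HFD and 10400 to 19200 CPM in WT-HFD, and fibroblast and progenitor markers, 0 of 11 called, to 987 to 1500 CPM in KO-HFD and 1010 to 1550 CPM in WT-HFD. Of 7 neutrophil markers tested 6 were lower, at 15.1 to 20.9 CPM in KO-HFD and 25.3 to 505 CPM in WT-HFD, and of 5 pericyte markers 1 was higher, at 653 to 783 CPM in KO-HFD and 313 to 486 CPM in WT-HFD. Their part in the collagen differences was not tested.

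**Figure D5:**
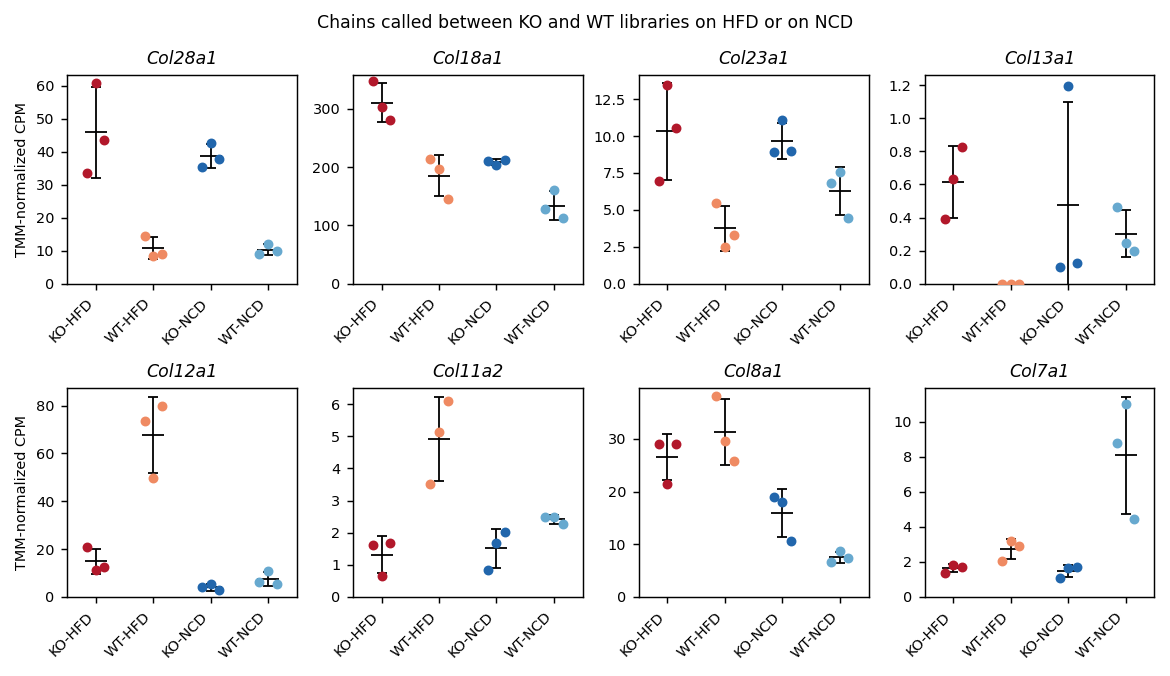
TMM-normalized CPM (y axis, from 0) of 8 chains in each library (points) with the group mean and SD (black bars, cut at 0 for Col13a1), groups from left to right KO-HFD, WT-HFD, KO-NCD and WT-NCD. Col28a1 stood at 33.5 to 60.8 CPM in the 6 KO libraries and at 8.51 to 14.5 CPM in the 6 WT libraries, Col12a1 was high in WT-HFD alone, at 49.9 to 79.6 CPM, and Col7a1 in WT-NCD, at 4.44 to 11.01 CPM.

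On chow, transcripts of the type I chains were called higher in KO than in WT mice, though not in every alternative fit. This comparison asks whether the genotypes differ without high-fat feeding. Of 37 genes 5 were higher in KO-NCD than in WT-NCD, against 5.27% of all genes tested, and 1 was lower, against 7.91%. For 11 genes the KO-NCD group was wholly above the WT-NCD group, against 18.0% of all genes, and for 2 wholly below, against 19.2%. The median log2 fold change of the 37 was 0.42, beside 0.06 over all genes. Col1a1, at 325, 264 and 330.0 CPM in KO-NCD against 155, 180.4 and 149 CPM in WT-NCD, was 1.9-fold higher (log2 fold change 0.92, SE 0.18, adjusted p = 0.0136). Col1a2 was 1.6-fold higher (log2 fold change 0.67, SE 0.20, adjusted p = 0.0458) and Col8a1 2.11-fold higher (log2 fold change 1.08, SE 0.23, adjusted p = 0.0189), neither with overlap. Col18a1 was 1.56-fold higher (log2 fold change 0.64, SE 0.17, adjusted p = 0.0327), and Col28a1 has been given with the HFD groups. Col7a1 was the 1 gene that was lower, by 5.39-fold (log2 fold change -2.43, SE 0.35, adjusted p = 0.00488). Col3a1 and Col14a1 lay above WT-NCD in every KO-NCD library without a call (adjusted p = 0.185 and 0.212), as did Col6a1 and Col6a2 (adjusted p = 0.109 and 0.179).

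The number of higher genes was 1 without KO-NCD 1 or WT-NCD 1, 2 without KO-NCD 3 or WT-NCD 3, and 3 without KO-NCD 2. The Col1a1 call held in 9 and the Col1a2 call in 3 of 13 alternative fits. Col1a1 lost its call without KO-NCD 1, KO-NCD 3 or WT-NCD 1 singly. Without WT-NCD 1 and 2, a single WT-NCD library remained, its spread was assumed, and the calls of KO-NCD against WT-NCD were lost. The log2 fold changes were then 1.02 for Col1a1, 0.74 for Col1a2, 1.09 for Col8a1, 0.86 for Col18a1 and 1.96 for Col28a1, each at least as large as with all libraries, with adjusted p of 0.0992 to 0.294, and -1.59 for Col7a1 (adjusted p = 0.123). The comparison of KO-NCD with WT-NCD shares WT-NCD with the diet comparison in WT mice, and the interaction uses all of these groups, so they are not independent of each other. Of 7 smooth muscle markers 3 were lower in KO-NCD, at a summed 212 to 319 CPM against 300.4 to 991 CPM in WT-NCD, and fibroblast and progenitor markers, 0 of 11 called, summed to 823 to 1490 CPM in KO-NCD and 666 to 869 CPM in WT-NCD. Adipocyte markers, 0 of 9 called, summed to 21700 to 30400 CPM in KO-NCD and 35300 to 44900 CPM in WT-NCD. Macrophage markers, 1 of 13 higher and 0 lower, summed to 1310 to 2060 CPM in KO-NCD and 1130 to 1230 CPM in WT-NCD. The part of these cell types in the collagen differences was not tested.

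Genes that make, bind, take up and degrade collagen moved in WT mice on HFD as well. Their values against WT-NCD are given only with every WT-NCD library included, and thus with the seminal vesicle RNA. Of 33 collagen modifying and processing enzymes, 22 rose and 1 fell in WT-HFD relative to WT-NCD, against 17.6% and 18.4% of all genes tested, with a median log2 fold change of 1.01. Plod2, a lysyl hydroxylase that sets the type of cross-link, rose 3-fold (log2 fold change 1.58, SE 0.17, adjusted p = 0.000126), and Lox, the secreted enzyme that starts cross-linking, rose 8.75-fold (log2 fold change 3.13, SE 0.40, adjusted p = 0.000287). Loxl3, a relative of Lox, rose 3.23-fold (adjusted p = 0.000288) and Bmp1, which trims the procollagen end of fibrillar chains, 2.38-fold (adjusted p = 0.000327). In KO mice edgeR called 0 of the 33 between diets. At an unadjusted p under 0.05, 12 of the 33 were higher and 0 lower, beside 788 higher and 743 lower of all 16352 genes tested. Between genotypes on HFD 9 were lower in KO-HFD, against 7.72% of all genes tested, among them Plod2 (log2 fold change -1.12, SE 0.16, adjusted p = 0.00348), and 1, Colgalt2, a collagen galactosyltransferase, was higher, against 7.99% (log2 fold change 1.67, SE 0.28, adjusted p = 0.00493). The interaction was called negative for 9 and positive for 1, against 8.57% and 9.12% of all genes tested, including -1.20 for Plod2 (SE 0.23, adjusted p = 0.00781) and -1.85 for Lox (SE 0.52, adjusted p = 0.0343).

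Several receptors and degrading enzymes of collagen also rose in WT-HFD. Of 13 collagen receptor and uptake genes tested, 6 rose and 1 fell in WT-HFD. Mrc2, the endocytic receptor of collagen fragments on fibroblasts, rose 5.35-fold (adjusted p = 0.000124), the discoidin receptor Ddr2, which binds fibrillar collagen, 1.96-fold (adjusted p = 0.000896), and the 1 that fell was Ddr1, an epithelial collagen receptor (log2 fold change -0.85, SE 0.16, adjusted p = 0.00202). Of 15 collagen degrading proteases tested, 8 rose and 1 fell. The collagenase Mmp13 rose 9.67-fold from a low level, a mean of 0.506 CPM in WT-NCD (adjusted p = 0.000581). The lysosomal Ctsl and Ctsb, which are abundant in macrophages, rose 3.25-fold and 2.47-fold (adjusted p = 0.000331 and 0.000597). On HFD 7 of the 15 were lower and 1 higher in KO than in WT, against 7.72% and 7.99% of all genes tested, and their summed level was 2810 to 3880 CPM in KO-HFD against 6510 to 10800 CPM in WT-HFD. Ctsb held most of this sum, at means of 2164 CPM in KO-HFD and 4951 CPM in WT-HFD. The log2 fold change was above 0 for 4 of the 15. Mmp2 and Mmp14 averaged 127 and 137 CPM in KO-HFD against 93.6 and 133 CPM in WT-HFD. Of 16 collagen fibril binding proteins, 6 rose and 3 fell in WT-HFD. Thbs1, a matricellular thrombospondin, rose 21.5-fold (adjusted p = 0.000142) and Prelp, a leucine-rich repeat proteoglycan, 4.43-fold (adjusted p = 0.000125). Of 17 basement membrane partners of type IV, 1 rose and 3 fell, with the laminin chain Lamb3 3.73-fold higher (adjusted p = 0.000327) and the nidogen Nid2 lower (log2 fold change -0.89, SE 0.16, adjusted p = 0.00179). These shares stand beside 17.6% of all genes higher and 18.4% lower in the same comparison. In KO mice 1 of the 16 fibril binding genes was called higher on HFD and 0 lower, against 0.0245% and 0.00612% of all genes tested. Prelp averaged 1667 CPM in KO-HFD and 533 CPM in KO-NCD. Of the receptors, proteases and basement membrane partners, 0 were called between the KO groups.

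The chains not yet described stayed at low levels and went uncalled in all 5 tests by edgeR. Col4a5 and Col4a6, type IV chains of muscle and epithelial basement membranes, were at 25.7 to 40.3 and 15.3 to 23.9 CPM in KO-HFD and 20.1 to 42.9 and 9.81 to 24.5 in WT-HFD, and at 10.1 to 32.7 and 2.39 to 17.9 in KO-NCD and 14.1 to 26.7 and 6.05 to 15.9 in WT-NCD. Both had their lowest value in KO-NCD 1, and their groups overlapped. Col4a4 ran at 2.78 to 8.86 CPM in KO-HFD and 0.0930 to 2.33 in WT-HFD, and was highest in KO-NCD 2 at 13.3 CPM. Col6a4, Col9a3 and Col20a1 reached at most 3.73 CPM in any library, and Col22a1 and Col26a1 at most 1.77 CPM. The HFD groups did not overlap in Col4a4, but the difference was not called (KO-HFD against WT-HFD, log2 fold change 2.29, SE 0.93, adjusted p = 0.113, edgeR).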

How the data were processed

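RNA of gWAT was sequenced from TruSeq Stranded mRNA libraries, 3 for each of 4 groups. The authors made the deposited values, raw read counts per gene with no normalization. Per the labels and the submitters' processing notes, bcl2fastq 2.20.0, Trimmomatic, HISAT2 2.1.0, StringTie 1.3.4d and the build mm10 were used, and the strand setting of the counting is not given in the sources used here. Entrez identifiers were matched to RefSeq symbols (GRCm38.p6) for 19745 of 19792 genes.

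Genes passing edgeR's filterByExpr (min.count 10, min.total.count 15) were tested, 16352 in all. A single fit with edgeR 4.0.16 in R 4.3.3 (TMM, 4 group means, 8 residual degrees of freedom, biological coefficient of variation 0.339) gave quasi-likelihood tests of 4 group comparisons and the diet by genotype interaction, with Benjamini-Hochberg adjustment. Fits were tested on simulated data. Alternatives were DESeq2 1.42.0, its size factors, no filter, the 2 groups alone, a replicate block, each library left out, and the libraries with the most foreign RNA left out. The deposited design calls the libraries biological replicates, with no record here of which mouse gave each, and p-values measure the spread between these libraries. Values are sums of reads without molecular identifiers, and bounds cover counting error only.

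Named genes were the chains of types I, III to VI, XV and XVIII and all members called. The members, gene lists and tests were chosen with earlier results of these data known. Deviations from the group means correlated at 0.468, 0.699 and 0.195 between KO-HFD and KO-NCD libraries of numbers 1, 2 and 3. KO libraries of unlike number correlated at -0.571 to 0.182, so number 3 hardly stood out. The libraries of number 2 share liver and ciliated epithelium RNA, and no label pairs libraries across diets. Taking the numbers to pair the KO libraries was thus an assumption, and the block left the count of collagen calls between them at 0. Same-group libraries differed beyond sampling noise. Promoter motifs were searched as letters on both strands.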

Additional observations from a re-analysis of the deposited data

Results flagged for a closer look

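For 7 collagen genes the effect of HFD differed between KO and WT mice by the interaction test of edgeR, given as the log2 change in KO mice minus that in WT mice. It was -1.41 for Col1a1, -1.31 for Col8a1, -1.03 for Col1a2, -1.33 for Col27a1 and -1.02 for Col16a1, all chains that rose on HFD in WT mice. It was 1.7 for Col7a1, whose WT-NCD level moved with the seminal vesicle share of those libraries. The value of 7.57 for Col13a1 is a fitted one that depends on the prior count, since WT-HFD held 0 counts of that gene, and its size is not a measured fold.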

How the results depend on the processing

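No collagen value that was called changed sign in any alternative. Of the values of single collagen genes, 1179 kept their sign and their side of the threshold, 149 lost a call, 33 gained one and 40 changed sign without being called in either fit. The leading called genes of the lists of enzymes, receptors, proteases and binding partners were followed too. Of their values, 707 kept the call, 145 lost it and 0 changed sign. Without WT-NCD 1 and 2, 8 genes were higher and 0 lower in WT-HFD against WT-NCD, 0 and 0 in KO-NCD against WT-NCD, and the interaction was positive for 0 and negative for 1. Without KO-NCD 2 and KO-HFD 2, 2 genes were higher and 1 lower in KO-HFD against WT-HFD, 3 were higher in KO-NCD against WT-NCD, and the interaction was negative for 1. The DESeq2 Wald test called 3 genes higher in KO-HFD against KO-NCD, and 10 higher and 5 lower in KO-HFD against WT-HFD. With the library number as a replicate block, 13 genes were higher and 2 lower in WT-HFD against WT-NCD, 1 higher and 1 lower in KO-HFD against WT-HFD, and the interaction was positive for 0 and negative for 2. No label says that the numbers pair libraries, and outside the KO groups same-number libraries did not stand out by correlation. The cause of these shifts was not tested. Leaving out each library in turn gave 11 to 13 genes higher and 3 to 7 lower in WT-HFD against WT-NCD, 0 in either direction in KO-HFD against KO-NCD, 2 to 7 higher and 1 to 3 lower in KO-HFD against WT-HFD, 1 to 4 higher and 1 lower in KO-NCD against WT-NCD, and 0 to 3 positive and 1 to 6 negative interactions. With 1 library left in a group, its spread was assumed to be that of the others. Over all genes, calls ran from 2474 to 6789 across the alternatives in WT-HFD against WT-NCD, beside 5881, from 0 to 317 in KO-HFD against KO-NCD, beside 5, from 661 to 4035 in KO-HFD against WT-HFD, beside 2570, from 76 to 3708 in KO-NCD against WT-NCD, beside 2154, and from 736 to 4098 for the interaction, beside 2893. The 6 genes under the filter on low counts were not tested. The log2 fold changes that changed sign were at most 0.265 in size in the alternative with the other sign. Without WT-NCD 1 and 2, the log2 fold change was 0.016 for Col5a3 in WT-HFD against WT-NCD, -0.061 for Col4a2 in KO-NCD against WT-NCD, with interactions of 0.013 for Col4a1, 0.048 for Col4a2, -0.21 for Col5a3 and -0.14 for Col18a1. Without KO-NCD 2 and KO-HFD 2, the log2 fold change was 0.14 for Col6a3 in KO-HFD against KO-NCD, 0.070 for Col5a1 and 0.088 for Col6a2 in KO-HFD against WT-HFD, and 0.040 for Col6a3 for the interaction. With a fit of the 2 groups compared, the log2 fold change was -0.008 for Col4a2 in KO-HFD against WT-HFD. With the replicate block, the log2 fold change was -0.023 for Col4a2 in KO-HFD against WT-HFD. Leaving out each library in turn, the values whose sign changed ran from -0.053 to 0.36 for Col6a3 in WT-HFD against WT-NCD, and -0.35 to 0.047 for Col6a3, -0.060 to 0.36 for Col15a1 in KO-HFD against KO-NCD, and -0.094 to 0.12 for Col4a2, -0.26 to 0.10 for Col5a1, -0.26 to 0.11 for Col6a1, -0.25 to 0.27 for Col6a2 in KO-HFD against WT-HFD, and -0.099 to 0.19 for Col4a2, -0.40 to 0.019 for Col6a3 in KO-NCD against WT-NCD, and -0.32 to 0.049 for Col4a1, -0.19 to 0.10 for Col4a2, -0.044 to 0.22 for Col18a1 in the interaction.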
